A study of Mus musculus with 24 samples.

Results

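The tropomyosin genes Tpm1, Tpm2, Tpm3 and Tpm4 and their alternative exons were described in mouse cells carrying a wild-type or a slow RNA polymerase II (RNAPII). The genes were chosen by name, and 1 exon of Tpm1 was selected on its percent spliced in (PSI) in embryonic stem cells (ESCs), where it showed the largest rise in slow/slow over WT cells. The members were 4 of 22667 genes in the expression table and 13 of 54141 exon and microexon events in the splicing table. Tpm1 had 5 of these events, Tpm2 had 2, Tpm3 had 6 and Tpm4 had 0. Poly(A)+ RNA had been sequenced from 8 groups of 3 replicates each, 24 libraries in all. WT cells carried unmodified Polr2a, the gene of the largest RNAPII subunit, and slow/slow cells were homozygous for its R749H mutation. Each genotype was sampled as ESCs kept in 2i medium, on day 7 of differentiation as neural progenitors (NPCs), as cells purified for PSA-NCAM at day 10 (PSA-NCAM+ cells), and as neurons replated at day 7 and grown for 14 more days. The methods of the study give a plating density for differentiation of about 10000 cells per cm2 for WT cells and report more cell death below 30000 for slow/slow cells, so that genotype and plating density cannot be told apart after the ESC stage. Because the ESC comparison between genotypes chose the Tpm1 exon, ESC values are given as a description with no test.

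Tropomyosins are coiled-coil proteins that polymerize head to tail along actin filaments and govern which myosins and severing proteins reach the filament. The genes make many isoforms from alternative promoters, from an internal pair of mutually exclusive exons (6a and 6b), in Tpm1 from a second pair (2a and 2b), and from alternative 3′ ends that begin with exon 9a. The choice within these pairs differs between muscle, brain and other tissues and is a classic model of splicing regulation by PTB proteins.

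The libraries held between 32974432 and 104466886 gene counts. Mean correlation with the other libraries of a group (log2 CPM) was at least 0.9979 in ESCs, NPCs and neurons, and lower in PSA-NCAM+ cells, with 0.9665 for slow/slow replicate 1 and 0.9819 for WT replicate 1. PSA-NCAM+ results were therefore also computed without these libraries. Stem cell markers summed to between 5013 and 5734 CPM (gene counts scaled to the size of the library) in ESCs and to between 75.5 and 127 CPM in neurons, and the 4 neuron markers in the table summed to at least 1221 CPM in neurons. In WT NPCs and WT PSA-NCAM+ cells the neuron markers summed to at most 34 CPM while the stem cell markers were still at 1295 CPM or more. In slow/slow PSA-NCAM+ cells the neuron markers summed to between 51.7 and 224 CPM, still below neurons. Of 4 tested, 4 were higher there than in WT, beside 28.6% of all genes. In slow/slow NPCs they summed to 104 to 121 CPM, against 27.4 to 28.1 CPM in WT. The same sum was already 122 to 151 CPM in slow/slow and 45.2 to 57.1 CPM in WT ESCs. In slow/slow NPCs 2 progenitor markers summed to 120 to 157 against 36.9 to 38.3 CPM in WT. The stem cell markers summed to 1114 to 1232 against 1887 to 1961 CPM. In neurons the neuron marker sums overlapped between genotypes (1221 to 1392 CPM in slow/slow, 1333 to 1430 CPM in WT). Yet of 4 tested, 3 were lower and 0 higher in slow/slow neurons (median log2 fold change −1.34), beside 28.4% of all genes lower. Syn1 was at 59 to 62.3 CPM there, against 212 to 236 CPM in WT. Marker levels thus differed between genotypes, and their part in the results below was not tested.

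The exons of pair 6 are 76 bases long in each gene. Their sequences are shown because the choice between them carries most of the differences below. They were read from GENCODE transcripts (GRCm38) on the coding strand, and capitals mark the bases at which the 2 exons of a gene differ.
Tpm1 exon 6a: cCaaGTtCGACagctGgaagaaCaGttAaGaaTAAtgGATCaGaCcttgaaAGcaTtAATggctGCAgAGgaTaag
Tpm1 exon 6b: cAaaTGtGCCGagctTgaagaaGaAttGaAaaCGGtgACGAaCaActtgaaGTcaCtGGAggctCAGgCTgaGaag
Tpm2 exon 6a: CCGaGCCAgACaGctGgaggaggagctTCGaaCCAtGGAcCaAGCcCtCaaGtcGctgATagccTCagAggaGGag
Tpm2 exon 6b: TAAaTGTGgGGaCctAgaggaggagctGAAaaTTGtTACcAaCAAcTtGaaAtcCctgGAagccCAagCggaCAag
Tpm3 exon 6a: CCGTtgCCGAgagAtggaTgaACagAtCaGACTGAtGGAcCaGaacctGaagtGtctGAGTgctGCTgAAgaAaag
Tpm3 exon 6b: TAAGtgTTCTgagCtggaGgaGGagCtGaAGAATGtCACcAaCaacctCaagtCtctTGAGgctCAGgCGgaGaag
Within a gene the exons shared 56.6% of bases in Tpm1, 53.9% in Tpm2 and 51.3% in Tpm3. Across genes, exon 6b was more alike (73.7% to 76.3%) than exon 6a (61.8% to 65.8%). In mm9, the build of the splicing table, the Tpm1 pair lies on the minus strand at chr9:66880273-66880348 (6a) and chr9:66879758-66879833 (6b), and both exons are wholly coding in the annotation. The Tpm2 pair lies on the minus strand at chr4:43531875-43531950 and chr4:43531516-43531591. The Tpm3 pair lies on the plus strand at chr3:89892323-89892398 and chr3:89892970-89893045.

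Tpm1 exon 6a was included more often in slow/slow than in WT cells at the first 3 stages, and the gap narrowed in neurons. In ESCs its PSI was 37.5, 39.5 and 39.4% in WT replicates 1 to 3 and 73.4, 80.9 and 77.9% in slow/slow replicates, from 286 to 506 inclusion and exclusion reads per library. The group means were 38.8% ± 1.16 (SD, n = 3) and 77.4% ± 3.79 (SD, n = 3), a rise of 38.6 points that selected this exon. The rise just behind it, 36.2 points in an exon of Exoc1, is given only to place the selection.
In NPCs the PSI was 28.7, 30.1 and 29.1% in WT and 71.8, 77.9 and 74.8% in slow/slow cells, from 1923 to 4552 reads per library. The ranges did not overlap, and the 45.5 point rise passed the test (posterior probability of the sign 1 after rounding). It was 1 of 3 tropomyosin exon events called in NPCs, all of Tpm1, where 2.93% of 22735 events were called.
In PSA-NCAM+ cells the PSI was 27.4, 31.4 and 29.5% in WT and 55.7, 60.8 and 58.9% in slow/slow cells. The 29 point rise also passed (posterior probability 1 after rounding, background 0.966% of 24333 events) and stayed between 27.9 and 30.4 points when any 1 library was left out. Unblocked limma called 2 events in all at this stage (0.00822%), which were exons 6a and 6b of Tpm1, and 0.653% with the replicate block.
In neurons the PSI was 46.6, 52.6 and 51.3% in WT and 62.9, 56.8 and 55.1% in slow/slow cells. These ranges did not overlap either, but the difference of 8.1 points was below the 10 point limit and was not called (posterior probability 0.957), and 0 of 8 tested tropomyosin exon events were called at this stage against a background of 3.55% of 24305 events. Of these 8 events, 5 had a posterior probability over 0.95 with a difference under the limit. With limma in place of the posterior scheme the number called was also 0 (background 3.29%).

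**Figure D1:**
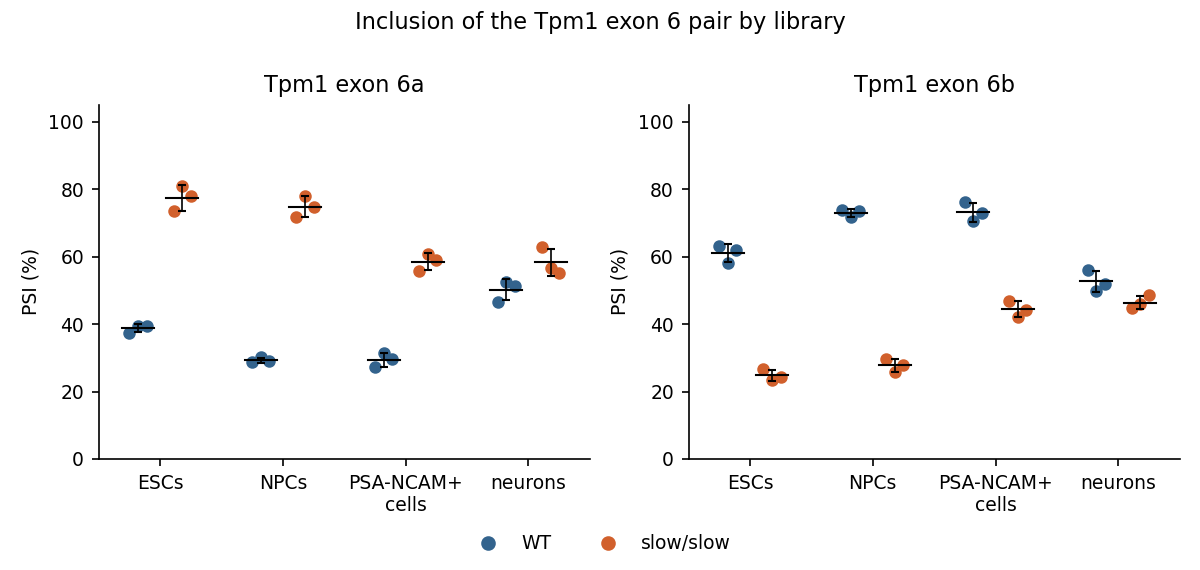
PSI of Tpm1 exons 6a and 6b (y axis, percent) in each library by stage (x axis), with WT in blue and slow/slow in orange; black bars are means and SD of 3 replicates. Exon 6a sits between 71.8 and 77.9% in slow/slow NPCs and between 28.7 and 30.1% in WT NPCs, and the genotypes approach each other in neurons.

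Exon 6b mirrored exon 6a. The PSI values of the pair summed to between 97.65 and 107.5% in the 24 libraries, so the 2 exons are not independent measurements. Exon 6b was lower in slow/slow cells by 45.3 points in NPCs (73% ± 1.12 against 27.7% ± 1.87, SD, n = 3) and by 28.7 points in PSA-NCAM+ cells, and both differences were called.

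The change of exon 6a between stages ran in opposite directions in the genotypes. From NPCs to neurons, WT cells rose from 29.3% ± 0.724 to 50.2% ± 3.16 (SD, n = 3), a called rise of 20.8 points (background 6.48% of events). Over the same interval slow/slow cells fell from 74.8% ± 3.04 to 58.3% ± 4.08 (SD, n = 3), a called fall of 16.6 points (background 3.73% of events). The difference between the genotype effects, −37.4 points, was tested with limma on the log2 odds of inclusion (−2.27, adjusted p = 2.455e-05, where 7.22% of 20535 events passed). From NPCs to PSA-NCAM+ cells, WT cells moved by 0.117 points and were not called (posterior probability 0.519, background 1.36%), while slow/slow cells fell by 16.3 points and were called (background 0.794%). The latter call was lost with unblocked limma, which called 0 of 22808 events (adjusted p = 0.249). It held with the replicate block (adjusted p = 0.000794, background 0.355%). Replicate numbers paired these samples only weakly for replicate 3 (correlation of deviations 0.184, beside 0.147 and 0.138 for mismatched replicates 2 and 3). Whether the genotypes differ in this earlier step was not tested.

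Exon 9a of Tpm1, the first of the alternative 3′ end exons (mm9 chr9:66877471-66877549), differed between genotypes in NPCs. Its PSI there was 33.9, 32.4 and 35% in WT and 15.2, 15.8 and 15.9% in slow/slow cells, a called fall of 18.1 points. WT NPCs were the only group above 26% in every library, and the other 7 groups lay between 13.3 and 25.7%. In WT cells the exon fell by 18 points from NPCs to neurons, which was called. In slow/slow cells the same step gave 0.687 points (posterior probability 0.637), and the genotype effect differed between the stages by 18.7 points (limma, adjusted p = 2.057e-05). In PSA-NCAM+ cells the genotypes overlapped, with 18.4 to 25.7% in WT and 13.8 to 21.1% in slow/slow cells, and the difference of −4.74 points was not called. The WT fall of 12.5 points from NPCs to PSA-NCAM+ cells was called by the posterior scheme and not by limma (adjusted p = 0.154, background 0.0485%).

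The second pair of Tpm1, exons 2a and 2b, stayed far from balance in every library. Exon 2b (mm9 chr9:66895593-66895718) ranged from 89.2 to 100% and exon 2a (chr9:66895931-66896056), the exon known from smooth muscle isoforms, from 0 to 13.5%. No genotype difference of the pair reached 10 points. Exon 2a was at 9.62 to 12.1% in WT and 4.51 to 5.14% in slow/slow NPCs, and at 0.81 to 1.51% in WT and 3.78 to 4.82% in slow/slow neurons. The order of the genotypes was thus opposite in NPCs and neurons, with no overlap at either stage, and the difference of the effects passed (9.06 points, adjusted p = 0.0004032 by limma). ESC libraries had only 11 to 43 reads for exon 2a.

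Tpm2 included exon 6a in most transcripts at all stages and included it less in neurons than in NPCs. Exon 6a had a PSI of 92.8 to 95.3% in WT ESCs and 94.8 to 100% in slow/slow ESCs. In NPCs it was 93.2, 92.7 and 94.6% in WT and 97.1, 98.1 and 93.4% in slow/slow cells, with overlapping ranges and no call.
In PSA-NCAM+ cells it was 85.5, 82.9 and 81.5% in WT and 92.8, 92 and 92.4% in slow/slow cells. The 9.07 point difference did not reach the limit, except without WT PSA-NCAM+ replicate 1 (10.2 points), while its counterpart exon 6b, at 20.2% ± 2.47 in WT and 8.84% ± 0.474 in slow/slow cells (SD, n = 3), fell by 11.3 points and was called. The call on exon 6b was lost with limma (adjusted p = 0.0776) and held with the replicate block (adjusted p = 0.00973), and the posterior scheme kept it when any 1 library was left out. With the Tpm1 pair, 3 tropomyosin exon events were called in PSA-NCAM+ cells. From NPCs to PSA-NCAM+ cells exon 6a fell by 10.2 points and exon 6b rose by 10 points in WT cells, and both were called just past the limit. Without WT PSA-NCAM+ replicate 3 the differences were −9.3 and 9.38 points and without WT NPC replicate 3 they were −9.64 and 9.81 points, so neither was called, and exon 6b also fell below the limit without WT PSA-NCAM+ replicate 2 (9.25) or WT NPC replicate 2 (9.72). In slow/slow cells exon 6a moved by −3.81 points and was not called.
In neurons exon 6a was 74.7, 60 and 66.8% in WT and 68, 73.9 and 73.8% in slow/slow cells, so the genotypes overlapped. From NPCs to neurons exon 6a fell by 26.4 points in WT and by 24.3 points in slow/slow cells, and both falls were called. The genotype effects at these stages differed by 2.09 points, and the test of that difference gave an adjusted p of 0.658 (limma).

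The 6 Tpm3 events mostly failed the filter of the study, which takes in coverage and balance scores. The 71-base, 63-base and 66-base exons and exon 6a passed it in 0 of 24 libraries, exon 9a in 4 and exon 6b in 16. Reads were few in many libraries, but the 71-base exon also failed in WT neurons with 326 to 558 reads. Which of the scores failed was not separated. In NPCs exon 6b had a PSI of 90.4, 91.8 and 91.6% in WT (79 to 160 reads) and of 40, 27.3 and 21.7% in slow/slow cells (14 to 21 reads). The slow/slow values have Wilson 95% intervals of 20.8 to 59.1%, 11.7 to 54.6% and 7.57 to 47.6%, which cover counting error only, and no test was made under the filter of the study. In PSA-NCAM+ cells exon 6b was 88.4, 79.8 and 83% in WT and 81.8, 40.4 and 47.8% in slow/slow cells, so the genotypes overlapped through slow/slow replicate 1, the library that stood apart. In neurons both genotypes were above 90%, with 96.8 to 99.3% in WT and 92.1 to 94.8% in slow/slow cells. There the difference of −4.12 points was below the limit (posterior probability 0.962). Exons 6a and 6b of Tpm3 summed to as little as 22.2% in 1 library, so skipping of both was counted in the shallow libraries. A pair of neighbouring exons had the same order of genotypes: the 71-base exon averaged 96.2% in WT against 53.2% in slow/slow NPCs, while the 63-base exon averaged 90.1% and 37.9%, each from 9 to 85 reads per library.

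Tpm3 exon 9a (mm9 chr3:89894935-89895013) was the tropomyosin exon that differed most between stages in WT cells. Its PSI was 93.6, 98.1 and 97.8% in WT NPCs and 29, 38.5 and 41.2% in WT neurons. In slow/slow cells it was 87.8, 83.1 and 85% in NPCs and 57.3, 73 and 79.6% in neurons. The exon failed the coverage and balance filter of the study in all 12 of these libraries, with 126 to 237 reads in the WT libraries. A minimum of reads in place of that filter leaves the balance score unchecked, and the calls that follow carry this limit. With at least 50 reads per library, the WT fall of 60.25 points was called. With at least 20 reads, a minimum chosen after the data were seen, the 33.7 point higher PSI of slow/slow neurons was called too (posterior probability 0.995), and slow/slow neuron replicate 3 had 43 reads. In NPCs the exon was 11.2 points lower in slow/slow cells and called with either minimum (posterior probability 0.989).

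**Figure D2:**
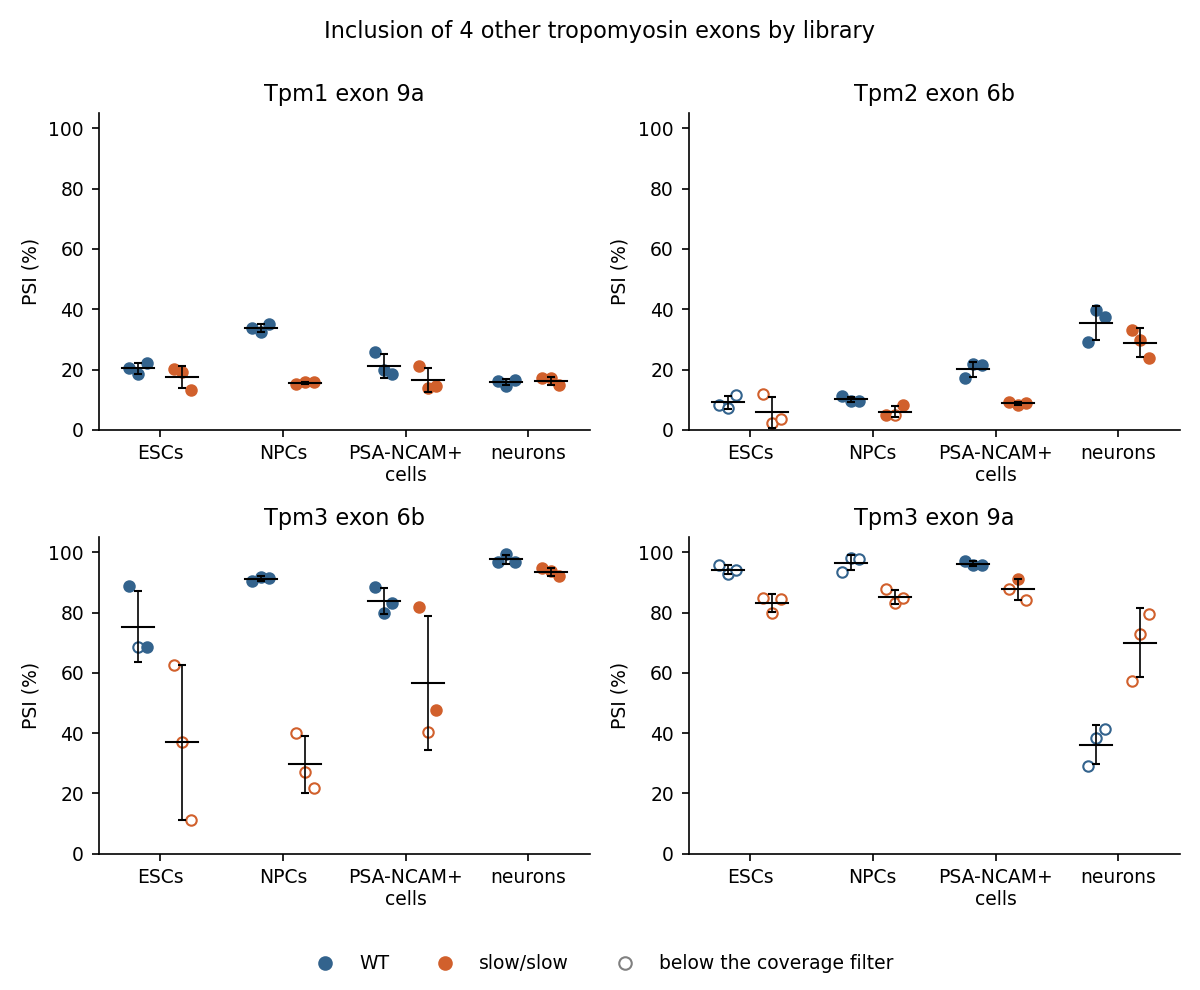
PSI (y axis, percent) of Tpm1 exon 9a, Tpm2 exon 6b, Tpm3 exon 6b and Tpm3 exon 9a in each library by stage (x axis), with WT in blue and slow/slow in orange; black bars are means and SD of 3 replicates. Open points, labelled in the legend as below the coverage filter, are libraries that failed the coverage and balance filter of the study. Tpm1 exon 9a stands out in WT NPCs (32.4 to 35%), and Tpm3 exon 9a drops to between 29 and 41.2% in WT neurons.

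Tpm1, Tpm2 and Tpm4 had their highest levels in PSA-NCAM+ cells and Tpm3 in ESCs. On the per-length scale of the authors' mean RPKM values, Tpm3 was the highest in WT ESCs (85.8), followed by Tpm4 (39.3), Tpm1 (29.2) and Tpm2 (3.96). In WT NPCs the order was Tpm1 (290.4), Tpm4 (135), Tpm3 (53.7) and Tpm2 (26.5), and in WT neurons Tpm1 (111.7), Tpm4 (105.4), Tpm3 (52.1) and Tpm2 (4.59). In slow/slow neurons Tpm4 (199.5) stood above Tpm1 (62.3). These means carry no replicate error, so neighbours as close as Tpm1 and Tpm4 in WT neurons cannot be ordered. The Tpm3 values imply a counted length of only 0.374 kb, against 1.85 to 2.08 kb for the other genes, so they rest on a small part of the gene and are uncertain.

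Tpm1, which makes long muscle-type and short cytoskeletal isoforms, was lower in slow/slow NPCs and neurons. It was at 58.6, 56.5 and 60.4 CPM in WT and 48.1, 53.8 and 51.5 CPM in slow/slow ESCs. In NPCs it was at 510, 495 and 542 CPM in WT and 369, 295 and 347 CPM in slow/slow cells, without overlap (log2 fold change −0.61 ± 0.19 SE, edgeR adjusted p = 0.00923). Leaving out slow/slow NPC replicate 2 moved the adjusted p to 0.0563.
In neurons Tpm1 was at 193, 194 and 235 CPM in WT and 116, 102 and 97.7 CPM in slow/slow cells (log2 fold change −0.98 ± 0.19 SE, adjusted p = 0.000236). In PSA-NCAM+ cells it was at 749, 880 and 975 CPM in WT and 1411, 734 and 657 CPM in slow/slow cells, where replicate 1 alone was above the WT libraries. The log2 fold change of 0.11 was not significant (adjusted p = 0.652) and became −0.30 without that library (adjusted p = 0.026). In bulk samples fewer cells of a type and less RNA per cell cannot be told apart. In NPCs and neurons the summed level of 6 smooth muscle markers was lower in slow/slow cells, as Tpm1 was. They summed to 481 to 536 CPM in WT against 207 to 305 CPM in slow/slow NPCs, and to 134 to 201 CPM in WT and 38.9 to 42.3 CPM in slow/slow neurons. Of the 6 markers, 0 were higher and 5 lower in NPCs, where Cnn1 was at 13.3 CPM in WT against 14.3 CPM in slow/slow cells. In neurons 1 was higher and 4 were lower, and the higher one was Des (1.13 against 2.61 CPM). In PSA-NCAM+ cells the sum was 745 to 930 CPM in WT and 894 to 1495 CPM in slow/slow cells. There 4 markers were higher and 1 was lower, while Tpm1 was not called. Beside these marker counts, 56.7% of all genes were called in NPCs and PSA-NCAM+ cells and 51.9% in neurons. The part of the markers in the Tpm1 result was not tested.

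Tpm2, a gene with striated and smooth muscle isoforms among others, differed between genotypes mainly in neurons. It was at 7.3, 9.39 and 11.6 CPM in WT and 24.4, 24.2 and 21.7 CPM in slow/slow neurons (log2 fold change 1.31 ± 0.17 SE, adjusted p = 1.87e-06). In NPCs the genotypes overlapped, at 52.1 CPM in each WT library and 49.5 to 56.2 CPM in slow/slow cells (log2 fold change 0.04, adjusted p = 0.862). The genotype effect differed between neurons and NPCs by 1.27 on the log2 scale (adjusted p = 0.000107, where 55.1% of genes passed). In PSA-NCAM+ cells Tpm2 was at 99.3, 69.1 and 78.7 CPM in WT and 147, 102 and 90.1 CPM in slow/slow cells (log2 fold change 0.45, adjusted p = 0.0209). That call was lost without slow/slow replicate 1 (0.24, adjusted p = 0.127) and without WT replicate 2 (0.37, adjusted p = 0.0813), and also when only these groups were fitted (0.44, adjusted p = 0.206).

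Tpm4, a cytoskeletal gene, was higher in slow/slow cells at each tested stage. It was at 277, 261 and 270 CPM in WT and 406, 376 and 394 CPM in slow/slow NPCs (log2 fold change 0.54 ± 0.11 SE, adjusted p = 0.000512). In PSA-NCAM+ cells it was at 500, 353 and 376 CPM in WT and 855, 657 and 592 CPM in slow/slow cells (log2 fold change 0.78 ± 0.12 SE, adjusted p = 1.14e-05). In neurons it was at 205, 223 and 232 CPM in WT and 391, 376 and 369 CPM in slow/slow cells (log2 fold change 0.79 ± 0.12 SE, adjusted p = 1.12e-05). The genotypes did not overlap at any of these stages, and the 3 calls held when any 1 library was left out. ESC levels were 84.9 to 90.8 CPM in WT and 109 to 113 CPM in slow/slow cells. In neurons the fibroblast and mesenchyme markers moved with Tpm2 and Tpm4. They summed to 222 to 279 CPM in WT and 609 to 646 CPM in slow/slow cells. Of these markers 6 of 6 were higher, beside 23.4% of all genes, among them Lum (34.4 against 0.731 CPM). In NPCs the same sum was lower in slow/slow cells (29.7 to 37.5 against 68.2 to 83.1 CPM) while Tpm4 was higher. The part of these cells in the neuron results was not tested.

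Tpm3, a cytoskeletal gene with many processed copies, had counts whose genotype difference changed direction between stages. It was at 17.6, 20.6 and 19.7 CPM in WT and 29.5, 28.1 and 27.5 CPM in slow/slow NPCs (log2 fold change 0.55 ± 0.10 SE, adjusted p = 0.000171). In neurons it was at 18.5, 20 and 20 CPM in WT and 14.5, 15 and 14.4 CPM in slow/slow cells (log2 fold change −0.42 ± 0.11 SE, adjusted p = 0.00242). The difference of the genotype effects was −0.97 on the log2 scale (adjusted p = 1.75e-05). In PSA-NCAM+ cells the log2 fold change of 0.23 was not called (adjusted p = 0.0652), and was called with the replicate block (adjusted p = 0.0392) without slow/slow replicate 1 (0.35, adjusted p = 0.00433), and without WT replicate 2 or 3 (adjusted p = 0.0241 and 0.0217). The gene most like Tpm3 over the 24 libraries was its related sequence Tpm3-rs7 (r = 0.989), and reads shared between near-identical copies make the Tpm3 counts uncertain. In NPCs the splicing reads, not scaled for depth, did not follow the counts. Exon 6b had 14 to 21 reads in slow/slow against 79 to 160 in WT NPCs. For the 66-base exon the genotypes overlapped there (42 to 100 against 82 to 129). The NPC difference is therefore given for the gene counts only.

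**Figure D3:**
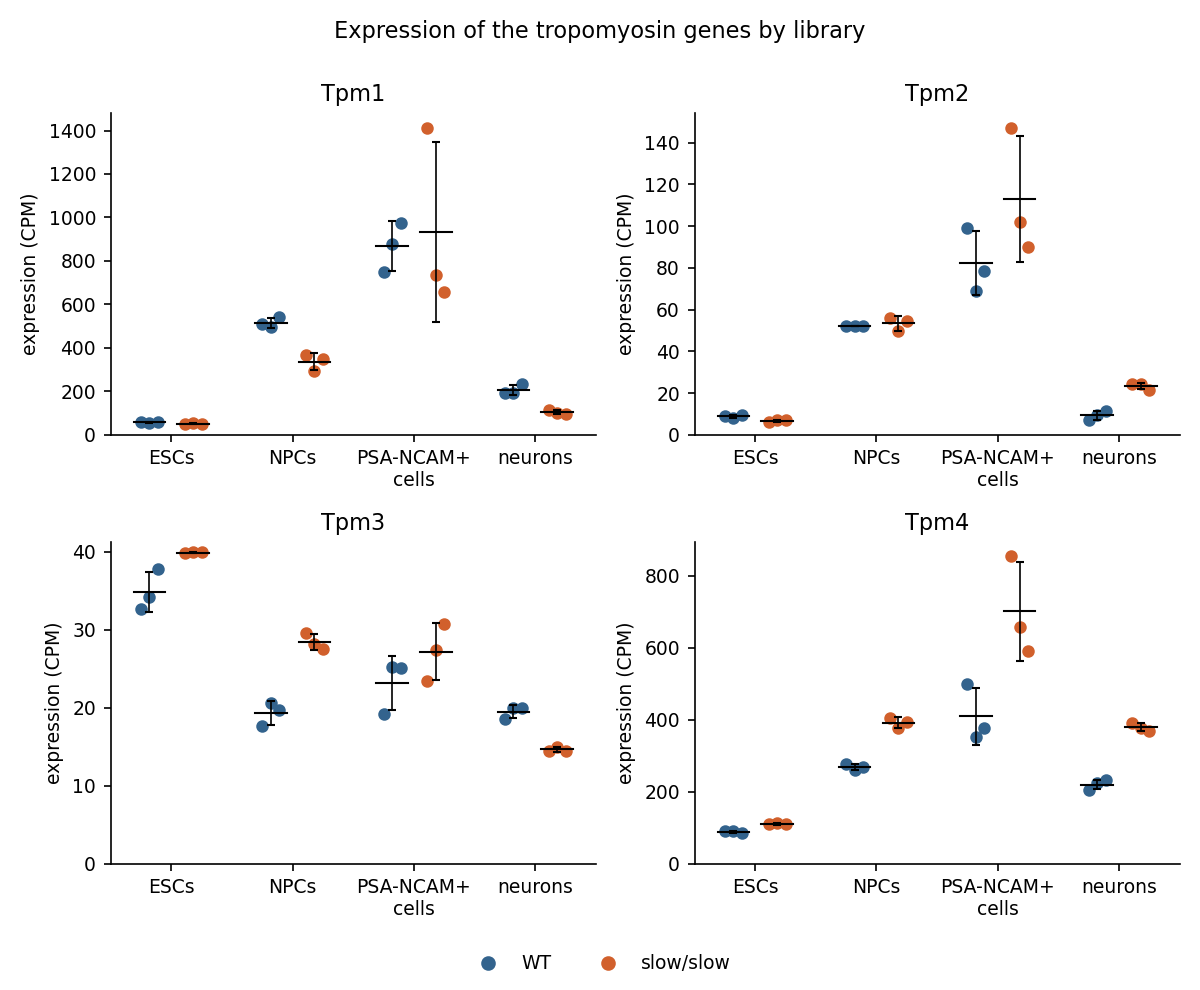
Expression of Tpm1 to Tpm4 (y axis, CPM after TMM scaling, from 0) in each library by stage (x axis), with WT in blue and slow/slow in orange; black bars are means and SD of 3 replicates. Tpm4 is higher in slow/slow cells at all stages, and Tpm1 in slow/slow PSA-NCAM+ cells ranges from 657 to 1411 CPM.

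In all, 3 of 4 tropomyosin genes were called at the NPC stage (2 higher, 1 lower), 2 at the PSA-NCAM+ stage (both higher) and 4 at the neuron stage (2 higher, 2 lower). The background was high, with 56.7%, 56.7% and 51.9% of 16627 genes called at these stages, so these shares say nothing particular about tropomyosins. Among all genes, the share higher in slow/slow cells was 29.3%, 28.6% and 23.4% at the 3 stages, and the share lower was 27.4%, 28.1% and 28.4%. The median log2 fold change over the 4 genes was 0.29, 0.34 and 0.18, beside 0.01, −0.01 and −0.06 over all genes tested. Between stages, 3 of 4 genes rose from NPCs to PSA-NCAM+ cells in each genotype (Tpm1, Tpm2 and Tpm4, background 41.3% called and 21.8% higher in WT, 42.3% and 22.5% in slow/slow cells). From NPCs to neurons Tpm1, Tpm2 and Tpm4 fell in WT cells and Tpm1, Tpm2 and Tpm3 in slow/slow cells (background 80.2% called and 38.9% lower in WT, 75% and 36.6% in slow/slow cells). The Tpm3 change from WT NPCs to PSA-NCAM+ cells, 0.26 on the log2 scale, missed the threshold (adjusted p = 0.0508) and passed it without WT NPC replicate 2 (0.0454) or WT PSA-NCAM+ replicate 1 (0.00422). Tpm1 fell by 1.32 and 1.68 on the log2 scale in WT and slow/slow cells, and Tpm2 by 2.46 and 1.19. The WT fall of Tpm4 (0.29, adjusted p = 0.0241) was lost when WT NPC replicate 1 or 3 or WT neuron replicate 1 was left out (adjusted p from 0.0508 to 0.0713).

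**Figure D4:**
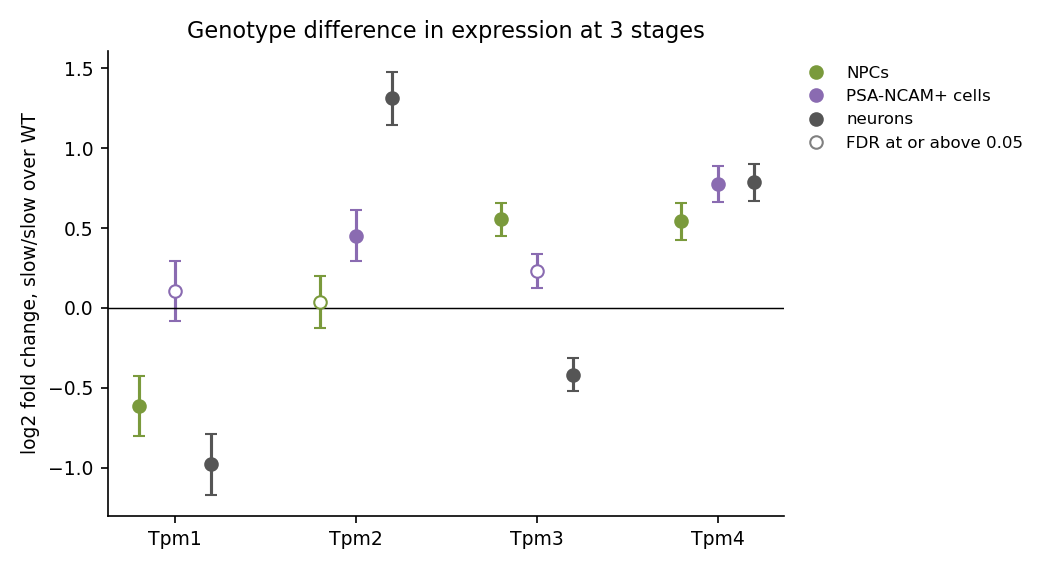
Log2 fold change of slow/slow over WT cells (y axis) for the 4 tropomyosin genes (x axis) in NPCs (green), PSA-NCAM+ cells (purple) and neurons (grey); bars are standard errors from edgeR and open points have an adjusted p of 0.05 or more. Tpm4 lies between 0.54 and 0.79 at the 3 stages, and Tpm2 reaches 1.31 in neurons.

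Genes that act with tropomyosin on the filament were counted from fixed lists. These counts are read against the shares of all genes called between genotypes, 56.7% at the NPC and PSA-NCAM+ stages and 51.9% at the neuron stage, and counts near those shares are no result about a list. Of 7 tested troponins, subunits of the calcium switch of striated muscle, 7 were lower in slow/slow NPCs, among them Tnnt2 (log2 fold change −3.22, edgeR adjusted p = 0.00421). In slow/slow neurons 4 were higher, led by Tnnt2 (3.67, adjusted p = 0.000815). Tnni2 was at −2.63 in NPCs (adjusted p = 0.00718). In PSA-NCAM+ cells 4 troponins were lower, among them Tnnt1 (−2.35, adjusted p = 2.62e-05) and Tnnc2 (−1.63, adjusted p = 0.00351). The 4 of 7 troponins called in PSA-NCAM+ cells and in neurons are near the shares of all genes. The median log2 fold change of the troponins was −1.91 in NPCs and −1.25 in PSA-NCAM+ cells, and in neurons it was 1.68. The levels were low. Tnnt2 and Tnni2 averaged 0.965 and 1.42 CPM in WT NPCs, Tnnc2 was below 1 CPM in PSA-NCAM+ cells, and in neurons the troponins had sums of 2.07 to 2.23 CPM in WT and 4.88 to 7.43 CPM in slow/slow cells. Of 6 tested tropomodulins and leiomodins, which cap or nucleate filament ends beside tropomyosin, 1 was higher and 3 were lower in slow/slow NPCs, with Tmod2 at 1.15 (adjusted p = 0.000492) and Tmod1, which averaged 0.589 CPM in WT against 0.0989 CPM in slow/slow cells, at −2.54 (adjusted p = 0.0023). That is 4 of 6 called, near the share of all genes. Tmod1 was at −3.73 in PSA-NCAM+ cells (adjusted p = 6.96e-06) and Lmod1 at −1.05 in neurons (adjusted p = 0.00162). Tmod2 had the opposite order of genotypes in neurons, at 297 to 331 CPM in WT and 170 to 185 CPM in slow/slow cells.
Of 7 caldesmon, calponin and transgelin genes, 1 was higher and 4 were lower in slow/slow NPCs, 5 were higher and 1 was lower in PSA-NCAM+ cells, and 2 moved each way in neurons. The 4 of 7 called in neurons are near the share of all genes. Tagln3, the neuronal transgelin, was higher by 1.74 on the log2 scale in NPCs (adjusted p = 1.24e-06) and by 2.94 in PSA-NCAM+ cells (adjusted p = 1.45e-09). Tagln, a smooth muscle actin-binding protein, fell by 2.09 on the log2 scale in slow/slow neurons (adjusted p = 1.01e-07). Of 6 actins, Acta2, the smooth muscle actin, fell by 2.23 in slow/slow neurons (adjusted p = 1.09e-08) and Acta1, the skeletal actin, was higher by 2.18 (adjusted p = 0.000235). The 3 actin severing genes, whose products compete with tropomyosin, were all lower in slow/slow neurons (median log2 fold change −0.37). At the earlier stages 1 was higher and 0 lower in NPCs (median 0.20), and 2 were higher and 0 lower in PSA-NCAM+ cells (median 0.38). Of 5 tested non-muscle myosin II genes, 3 were lower and 1 higher in slow/slow NPCs. Myl9, a regulatory light chain, was higher by 2.30 in PSA-NCAM+ cells (adjusted p = 2.47e-08).

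Splicing factors known to act on tropomyosin exons were counted in the same way. Of 17 tested, 8 were higher and 2 lower in slow/slow NPCs, 10 higher and 3 lower in PSA-NCAM+ cells, and 7 higher and 3 lower in neurons, with median log2 fold changes of 0.24, 0.36 and 0.23. The 10 of 17 called in NPCs and in neurons are near the shares of all genes. The largest called rises were those of Hnrnph1 in NPCs (1.12, edgeR adjusted p = 5.5e-09), Rbfox1 in PSA-NCAM+ cells (2.60, adjusted p = 0.000127) and Mbnl3 in neurons (1.86, adjusted p = 0.00398). The level of Rbfox1 was very low in PSA-NCAM+ cells, at 0.0814 to 0.136 CPM in WT and 0.184 to 1.17 CPM in slow/slow cells. Ptbp1, a repressor of many muscle and neuronal exons, was at 616 to 660 CPM in WT and 909 to 954 CPM in slow/slow NPCs (log2 fold change 0.56, adjusted p = 0.000706), and at 277 to 334 and 277 to 294 CPM in neurons (adjusted p = 0.381). Ptbp2, its neuronal paralog, was at 43.9 to 45.8 CPM in WT and 88.4 to 106 CPM in slow/slow NPCs (1.10, adjusted p = 1.62e-09) and still higher in neurons of both genotypes, at 217 to 224 and 274 to 288 CPM. Mbnl2, of the muscleblind family, was at 91.5 to 104 CPM in WT and 30.6 to 32.2 CPM in slow/slow NPCs (−1.60, adjusted p = 0.000859), and overlapped between genotypes in neurons. The part of these factors in the exon differences was not tested.

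The genes whose log2 CPM over the 24 libraries was most like that of Tpm1 were Lmod1 (r = 0.989), Cnn2 (0.987) and Flnc (0.979). For Tpm2 they were Fkbp10 (0.977), Marveld2 (0.974) and Acta1 (0.971), and for Tpm4 Bcar1 (0.982), Prss23 (0.981) and Phldb2 (0.976). Of 17789 exon events covered in all libraries, those of other genes with a PSI most like Tpm1 exon 6a included exons of Rbfox2 (r = 0.892), Pla2g6 (0.877), Myh9 (0.856) and Pcbp2 (0.837). The 40-base Rbfox2 exon, at mm9 chr15:76924881-76924920, averaged 75.1% in WT against 96.3% in slow/slow NPCs, with 84.7% and 93.9% in neurons. The 157-base exon of Myh9, a non-muscle myosin II heavy chain, averaged 77.1% and 90.6% in NPCs and 87.5% and 93.7% in neurons. These likenesses share the 8 groups and the library depths, and are given as descriptions with no p.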

How the data were processed

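Poly(A)+ RNA of the 24 libraries had been sequenced by the authors as 75-base paired ends and mapped to mm9, and vast-tools version 1 gave raw read counts per gene, PSI percent values per event and library, and quality scores with corrected inclusion and exclusion reads, which need not be whole. The deposited counts were used as they stood. The deposited RPKM values are the authors' means per group. Columns of the authors' own fold changes, FDR values and splicing calls were not used. Whether the counting used strand is not given in the sources used here.

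The members and lists were chosen with earlier results of these data known. Genes were tested with edgeR 4.0.16 (R 4.3.3): filterByExpr, TMM and a quasi-likelihood fit of 8 groups, with Benjamini-Hochberg adjustment over 16627 genes and an FDR under 0.05. CPM values are TMM-scaled. A further 1114 of 22667 genes had no values. Exon events were tested with a scheme after vast-tools diff: beta posteriors of the reads were pooled over replicates, and a call needed a posterior probability of the sign over 0.95 and a difference in mean PSI over 10 points, among events that passed the coverage and balance scores of the study in the 6 libraries compared. The study prints that probability limit as a value above 0.05, which was read as 0.95. The balance score is not given for microexons. The interaction of genotype and stage was tested with limma 3.58.1 on the log2 odds of inclusion, with 0.5 added to each count and weights from the reads. Alternatives were other scalings, no filter, DESeq2 1.42.0, fits of fewer groups, a replicate block, limma for exons, other limits and leaving out each library. Both tests recovered known changes in simulated data, and exon events with fewer reads were recovered less often.

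Named genes were the 4 members, exon events moving by 10 points or more between group means, the 3 largest called changes each way among the filament and splicing factor lists (printed for the comparisons between genotypes), Ptbp1, Ptbp2 and Mbnl2, and the genes and exons of most similar pattern. An exon event named by the last rule is not reported here. Exons were matched to GENCODE M21 (GRCm38) by length and spacing, which placed 12 of 13. Groups came from the labels. The study describes 3 independent differentiation experiments. Replicate numbers paired WT with slow/slow PSA-NCAM+ cells (correlation of deviations 0.624, 0.647 and 0.487) and slow/slow NPCs with PSA-NCAM+ cells (0.4, 0.408 and 0.184), and no other groups tested. Replicate 3 was poorly told apart from replicate 2. WT replicate 2 with slow/slow replicate 3 had 0.529 in PSA-NCAM+ cells, and slow/slow NPC replicate 2 with PSA-NCAM+ replicate 3 had 0.147. 0 pairs of libraries held identical counts.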

Additional observations from a re-analysis of the deposited data

Results flagged for a closer look

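For 7 results the difference between the genotypes was itself different in neurons and in NPCs, by a test of the interaction. Among genes, the slow/slow over WT log2 fold change of Tpm2 was 1.27 higher in neurons, and that of Tpm3 was −0.97, with the sign turned. Among exons, the genotype effect changed by −37.4 PSI points for Tpm1 exon 6a and by 39 points for its partner exon 6b, which share their reads. For Tpm1 exon 9a it changed by 18.7 points. For exons 2b and 2a of Tpm1 it changed by −8.73 and 9.06 points, below the limit used for calls within a stage. No sample was tested as an outlier, because groups of 3 are too small for that rule.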

How the results depend on the processing

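Each result for a single gene or exon was counted once under each alternative. Of these pairs of result and alternative, 1029 kept their direction and side of the threshold, 30 lost and 14 gained a call, and 19 changed sign. A read minimum leaves the values of an exon event already tested unchanged, so such pairs were kept by construction. The cause was not tested. Fitting only the groups compared left 1 tropomyosin gene called between genotypes in PSA-NCAM+ cells and gave 4 with an interaction. A minimum of 20 reads, chosen after seeing the data like the replicate variance in the weights and the block within the groups compared, gave 5 exon events in NPCs and 1 in neurons. That minimum replaced the filter of the study, so the balance score was not applied. For WT PSA-NCAM+ cells against NPCs, a limit of 15 points, limma and limma with replicate variance each left 0 exon events, and for slow/slow cells limma left 0 with either weighting.

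With 1 library left out, the genes called numbered 2 to 3 in NPCs and 2 to 3 in PSA-NCAM+ cells, with 4 in neurons, between genotypes, 3 to 4 and 3 from NPCs to PSA-NCAM+ cells in WT and slow/slow, 2 to 3 and 3 from NPCs to neurons, and 2 for the interaction. The exon events numbered 3, 3 to 4 and 0 between genotypes, 1 to 3 and 2, 5 to 6 and 3, and 5 in the same order. The 1 came without WT PSA-NCAM+ replicate 3 or WT NPC replicate 3.

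Changes of sign under upper-quartile scaling were those of Tpm2 in NPCs (−0.01) and of Tpm3 from WT NPCs to neurons (−0.26), where this scaling moved the median of all genes from 0.04 to −0.23. Tpm3 was at −0.04 there with only the groups compared. With 1 library left out, signs changed for Tpm1 between genotypes in PSA-NCAM+ cells (−0.30 to 0.34), for Tpm3 from NPCs to PSA-NCAM+ cells in slow/slow (−0.12 to 0.06) and to neurons in WT (−0.05 to 0.06). In PSI points they changed for Tpm1 exon 2a in PSA-NCAM+ cells (−0.287 to 2.38) and exon 9a in neurons (−0.04 to 1.32) between genotypes. From NPCs to PSA-NCAM+ cells they changed for exons 6a (−0.88 to 1.15) and 6b (−1.32 to 1.49) in WT and for exon 9a in slow/slow (−1.36 to 2.25), and from NPCs to neurons for exon 2b in slow/slow (−0.437 to 0.238).

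With the replicate block, edgeR called 3 tropomyosin genes between genotypes in NPCs and 3 in PSA-NCAM+ cells, with 4 in neurons and 2 for the interaction. Over all exon events, limma called 159 with and 2 without the block between genotypes in PSA-NCAM+ cells. In WT cells, where replicate numbers did not pair NPCs with PSA-NCAM+ cells, the block gave Tpm1 exon 9a an adjusted p of 0.0523 and Tpm2 exon 6b one of 0.0476. Tpm3 exons mostly failed the coverage and balance filter of the study.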
